A study of Mus musculus with 16 samples.

Results

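Imprinted genes are genes read from only the maternal or only the paternal copy, and 35 mouse genes of this kind were followed here in the ovary and the testis. Their symbols were looked up in a table of reads counted over exons for 38087 genes, and 32 of the 35 were found by symbol. The rows of Rian and Mirg carry other names and were found by gene identifier, so they are described but not counted among the 32. Kcnq1ot1 is not analysed here. Total RNA, depleted of ribosomal RNA, had been sequenced from 16 gonads of C57BL/6j mice, which the labels give as 15 to 16 weeks old, fed ad libitum and sampled between 2 and 4 h after lights on. The libraries fall into 4 groups, conventionally raised ovary (CV, n = 4), germ-free ovary (GF, n = 5), conventionally raised testis (n = 4) and germ-free testis (n = 3). Germ-free mice live without any microbes, and conventionally raised mice carry an ordinary microbiota. The series text calls the mice female, whereas the testis libraries are labelled male. The labels do not say that each library came from a separate animal, so the p-values below speak only of how much these libraries vary, and part of that variation may be technical.

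Imprinted genes lie in clusters in which a short stretch of DNA, methylated in only the egg or only the sperm, sets which parental copy is read. The marks are erased in primordial germ cells and written anew, in the growing oocyte of the ovary and in the fetal germ cells of the testis. Many members act on growth, hormone signalling or metabolism, and several clusters hold long noncoding RNAs beside the protein-coding genes. Reads were not assigned to a parental copy, so the values below are the summed output of both copies.

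The ovary libraries held between 12912251 and 15907297 counts and the testis libraries between 25880591 and 28266867. Levels are given as CPM, read counts relative to the library total after TMM scaling, which corrects totals for a few very abundant transcripts. Summed levels of 4 Y-linked genes were at most 0.113 CPM in the ovaries and between 114 and 127 CPM in the testes. Summed levels of 8 spermatid genes were at most 2.04 CPM in the ovaries and between 19700 and 22200 CPM in the testes, while 10 granulosa genes summed to between 2010 and 3780 CPM in the ovaries and between 126 and 142 CPM in the testes. All 16 libraries matched their tissue labels by these genes. In whole gonads, fewer cells of a type and less RNA per cell cannot be told apart, and tissue and sex are 1 factor.

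Compared per kilobase of exon, Gnas, which encodes the stimulatory G protein alpha subunit and its imprinted variants, stood highest in conventional ovaries, with a mean of 39.5 CPM per kilobase. Igf2r, a receptor that clears insulin-like growth factor 2, followed at 21.1 CPM per kilobase, and Ppp1r9a (neurabin, an actin-binding protein) was at 15.7. In conventional testes the order differed, with Copg2, a subunit of the COPI vesicle coat, at 27.4 CPM per kilobase, Asb4, a subunit of a ubiquitin ligase, at 14.1 and Gnas at 11.7. Ranked over all genes of the table by CPM per kilobase, Gnas stood at the 96.4th percentile in ovary and the 78.3rd in testis.

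**Figure D1:**
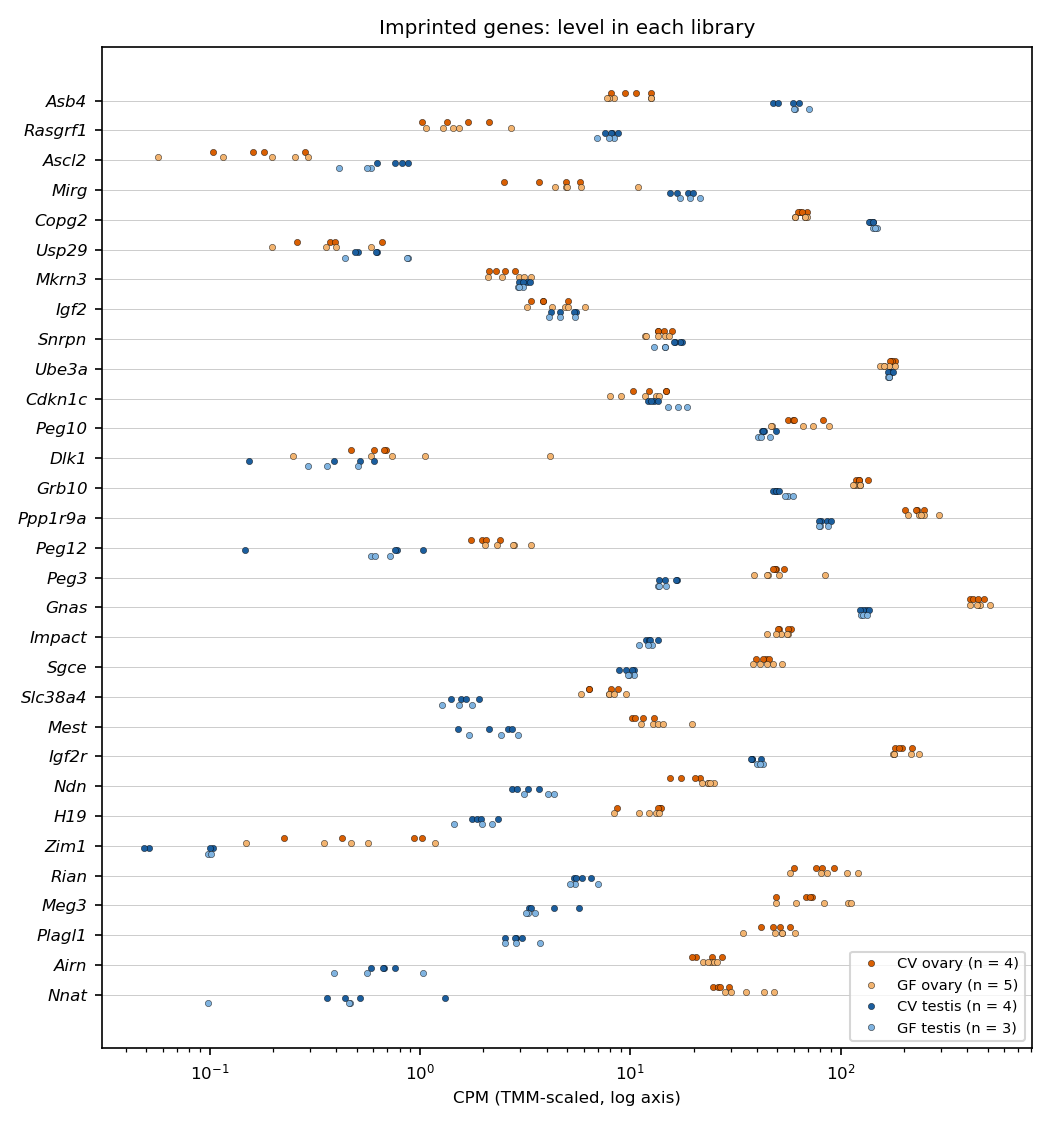
CPM of each imprinted gene that averaged 0.5 CPM or more in any group, on a log axis, with 1 point for each library and libraries without a count left out. Genes are ordered by the ratio of testis to ovary in conventional animals, from Nnat, with ovary levels of 24.8 to 48.0 CPM and testis levels of 0.098 to 1.31 CPM, up to Asb4.

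The first question was which imprinted genes differed between the gonads. Of 26 members that passed the filter on low counts in the conventional animals, 17 were lower in testis and 5 were higher at an adjusted p under 0.05 (edgeR quasi-likelihood F test, Benjamini-Hochberg over all genes). Over all 21231 genes tested, 91.2% passed, 47.4% higher and 43.8% lower in testis. The share of members called, 84.6%, was near that background, with 65.4% of members lower and 19.2% higher. The median log2 change of the members was -1.63, against 0.11 for all genes. In the germ-free animals, which share no library with the conventional ones, 17 of 27 members tested were lower and 4 were higher in testis. There, 89.2% of all 21221 genes tested passed, 45.7% higher and 43.4% lower. All 20 members called in both contrasts had the same direction, 17 lower and 3 higher.

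The choice of scaling moved these changes. With raw library totals in place of TMM, the median change of all genes went from 0.11 to -0.69 in conventional and from 0.04 to -0.75 in germ-free animals, and the share of calls that were higher in testis from 52% to 39.5% and from 51.3% to 38.5%. Under each scaling tried, the 17 lower calls held in conventional animals, and in germ-free animals all held except Peg10. Asb4, Rasgrf1 and Copg2 stayed higher in testis under each scaling, Copg2 at 0.31 with raw library totals in conventional animals. The genes whose sign turned are named below.

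**Figure D2:**
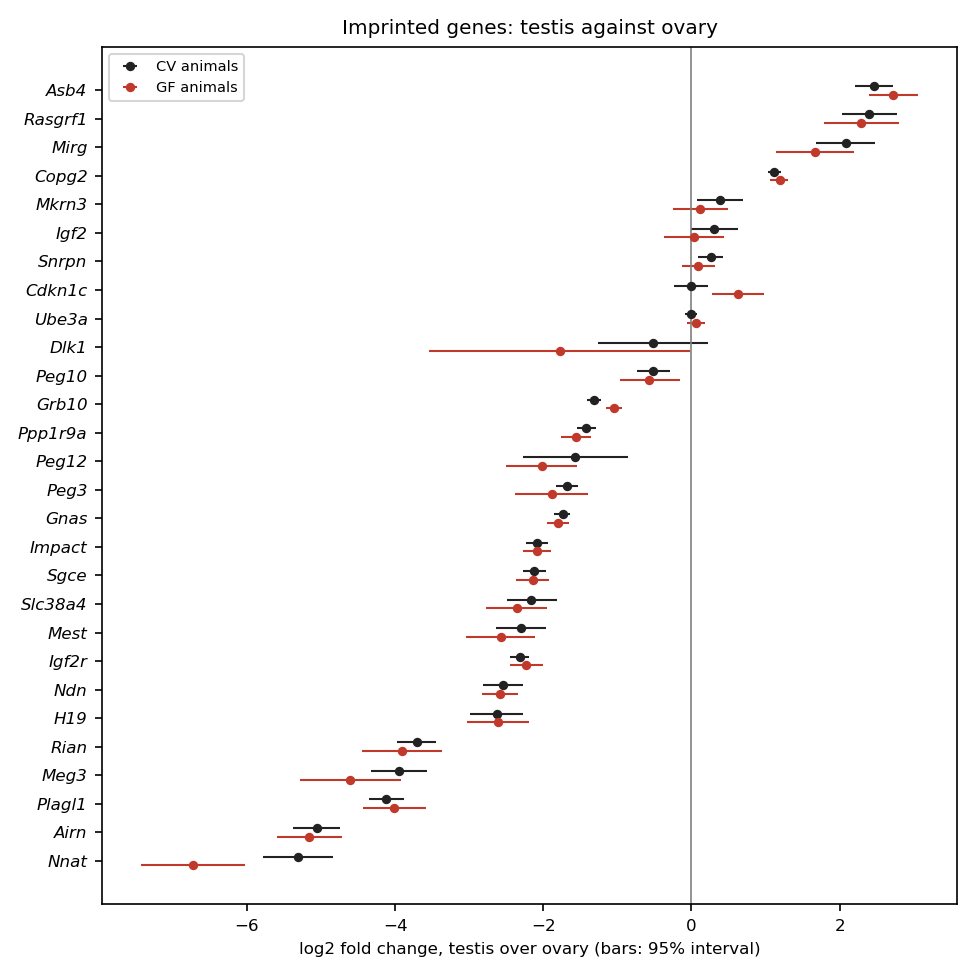
Log2 fold change of testis over ovary with 95% intervals, in conventional (black) and germ-free (red) animals, for the 26 imprinted genes tested in conventional animals and for Rian and Mirg. Nnat (log2 change -5.31 and -6.73) and Airn (-5.06 and -5.16) lie farthest to the left, and Asb4, Rasgrf1, Mirg and Copg2 lie to the right of 0 in both sets of animals.

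Nnat, a small membrane proteolipid first known from the developing brain, showed the largest tissue difference. Its levels were 29.3, 24.8, 26.0 and 26.8 CPM in the conventional ovaries and 0.518, 0.360, 1.31 and 0.441 CPM in the conventional testes. No testis library came near an ovary library. The log2 change was -5.31 (SE 0.243, adjusted p = 8.2e-10, edgeR), and in germ-free animals -6.73 (SE 0.360, adjusted p = 3.29e-08).

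Plagl1 encodes a zinc finger transcription factor that restrains the cell cycle. It was at 51.5, 41.7, 47.7 and 57.3 CPM in the conventional ovaries and at 2.85, 2.83, 2.53 and 3.04 CPM in the testes. The groups were far apart, at a log2 change of -4.12 (SE 0.119, adjusted p = 1.01e-12, edgeR).

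Igf2r and Airn, the noncoding RNA transcribed against it whose transcription silences the paternal Igf2r, were both lower in testis. Igf2r was at 219, 195, 182 and 190 CPM in the conventional ovaries and at 37.9, 37.7, 37.6 and 42.0 CPM in the testes, a log2 change of -2.32 (SE 0.0658). Airn was at 27.2, 24.5, 20.6 and 19.6 CPM in the ovaries and at 0.674, 0.668, 0.758 and 0.587 CPM in the testes, a log2 change of -5.06 (SE 0.162). The ovary and testis libraries of both genes were separated, and the difference was wider for Airn than for Igf2r, though the sizes of the 2 changes were not tested against each other. The genes overlap on opposite strands on chromosome 17, and whether counting used strand is not stated in the labels or files, so reads may be shared between them.

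In the Igf2-H19 domain, H19, a noncoding RNA of the maternal copy, was lower in testis, while Igf2, the growth factor of the paternal copy, had levels that overlapped between the gonads. H19 was at 13.8, 8.62, 14.0 and 13.5 CPM in the conventional ovaries and at 1.76 to 2.36 CPM in the testes, with no overlap (log2 change -2.63, SE 0.184). Igf2 ranged from 3.38 to 5.05 CPM in the ovaries and from 4.21 to 5.49 CPM in the testes, and these ranges overlapped. The log2 change of Igf2 was 0.31 (95% interval -0.01 to 0.63, adjusted p = 0.0888, edgeR), and its call and sign moved with the setting. Igf2 was called higher in testis with DESeq2 (0.44, adjusted p = 0.0235), with the size factors of DESeq2 in edgeR (0.44, 0.0219), without conventional ovary replicate 2 (0.44, 0.0188) and without conventional testis replicate 4 (0.42, 0.0397). With raw library totals it was called lower (-0.49, adjusted p = 0.011, edgeR).

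Sgce, Peg10 and Peg3, all read from the paternal copy, were lower in testis to different degrees. Sgce (epsilon-sarcoglycan) went from between 39.4 and 45.8 CPM in conventional ovaries to between 8.84 and 10.4 CPM in testes, a log2 change of -2.12. Its neighbour Peg10, derived from a retrotransposon and needed for the placenta, is transcribed away from it from a shared upstream region and differed less, with 56.4, 59.3, 59.9 and 82.2 CPM in ovary against 42.3, 43.4, 42.9 and 49.2 CPM in testis (log2 change -0.52, adjusted p = 0.00126, edgeR). In germ-free animals Peg10 changed by -0.57 (adjusted p = 0.0272), and its adjusted p rose above 0.05 without 1 germ-free ovary library (replicate 4, 0.064) and without any of the 3 germ-free testis libraries (0.0513 to 0.0828). Peg3, a zinc finger protein gene, was at 53.7, 49.3, 48.7 and 47.9 CPM in the conventional ovaries and at 13.7, 16.6, 14.6 and 16.5 CPM in the testes, a log2 change of -1.68.

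Members in the same domains went the other way. Asb4 lies downstream of Peg10 and Ppp1r9a, and was at 8.13, 9.47, 10.6 and 12.5 CPM in conventional ovaries but at 47.9, 50.3, 59.4 and 63.5 CPM in testes. Every testis library stood above every ovary library, at a log2 change of 2.46 (SE 0.129, adjusted p = 2.44e-09, edgeR), while Ppp1r9a in the same cluster changed by -1.42 (SE 0.0677). Mest, an alpha/beta-hydrolase fold enzyme gene, and Copg2 form a similar pair. Mest was at 12.9, 11.5, 10.2 and 10.5 CPM in ovaries and at 2.12, 2.62, 1.52 and 2.74 CPM in testes (log2 change -2.3), whereas Copg2 was at 63.8, 62.8, 69.4 and 65.8 CPM in ovaries and at 142, 138, 137 and 143 CPM in testes (log2 change 1.12). The ends of Mest and Copg2 overlap on opposite strands of chromosome 6 by their annotation, so some reads there cannot be assigned with certainty.

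Rasgrf1, a guanine nucleotide exchange factor for Ras, was also more abundant in testis, at 1.35, 2.13, 1.02 and 1.70 CPM in conventional ovaries and 8.19, 7.56, 8.74 and 8.08 CPM in testes. The libraries of the 2 tissues did not overlap, at a log2 change of 2.4 (SE 0.188).

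In the Prader-Willi and Angelman region on chromosome 7, neighbours did not move together. Ndn, a MAGE family protein, was at 15.5, 21.5, 17.5 and 20.4 CPM in conventional ovaries and at 2.75, 2.88, 3.69 and 3.28 CPM in testes (log2 change -2.55), and Peg12 also was lower (-1.57). Snrpn, which encodes a spliceosomal SmN protein, ranged from 13.5 to 15.8 CPM in ovaries and from 16.2 to 17.7 CPM in testes (log2 change 0.26, adjusted p = 0.0117, edgeR), but its sign turned to -0.55 with raw library totals, and in germ-free animals it changed by 0.09 (adjusted p = 0.442). Mkrn3, a ubiquitin ligase gene that delays puberty, changed by 0.38 (adjusted p = 0.0379) and by -0.42 with raw library totals. The call for Mkrn3 was also lost without any 1 of 4 libraries (conventional ovary replicates 1 and 3, conventional testis replicates 2 and 3), with adjusted p up to 0.0973. Ube3a, the ubiquitin ligase of the region, was at 181, 173, 175 and 172 CPM in ovaries and 173, 171, 168 and 177 CPM in testes, and its log2 change of -0.01 (95% interval -0.09 to 0.07) was not called (adjusted p = 0.899, edgeR). Its direction depended on the scaling, at 0.12 with DESeq2 (adjusted p = 0.00263), 0.12 with the size factors of DESeq2 in edgeR (adjusted p = 0.0146) and -0.81 with raw library totals (adjusted p = 4.47e-10).

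The other members called lower in both contrasts had log2 changes in conventional animals of -2.16 for Slc38a4 (an amino acid transporter), -2.08 for Impact (a regulator of translation under stress), -1.74 for Gnas and -1.31 for Grb10 (an adaptor that dampens insulin and growth factor receptors). Gnas was at 411, 480, 427 and 451 CPM in ovaries and at 132, 128, 124 and 137 CPM in testes, with no overlap. Cdkn1c, the cell cycle inhibitor p57, was not called in conventional animals (log2 change -0.01, 95% interval -0.24 to 0.22) and was called higher in testis in germ-free animals (0.63, adjusted p = 0.00687, edgeR). Raw library totals turned both results, to a call of lower in conventional animals (-0.82, adjusted p = 2.25e-05, edgeR) and to -0.16 (adjusted p = 0.395) in germ-free animals.

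Several members were close to the limit of detection. Rtl1, a retrotransposon-derived gene of the placenta, had 18 counts in the 9 ovaries together (5 in conventional and 13 in germ-free) and none in the 7 testes, which allows up to 0.0217 CPM over all testes (3 counts, counting error only). Magel2 had between 1 and 4 counts per group. Phlda2, a placental growth regulator, had between 6 and 11 counts per group, and Ascl2, a transcription factor of the placenta, had 13 and 17 counts in the ovary groups and 61 and 31 in the testis groups. Zim1 had 47 and 50 counts in the ovary groups and 6 and 4 in the testis groups, and Usp29 between 28 and 44 in each group. In the main fit, tissue differences in these 6 genes were not tested in conventional animals. Only Usp29 of them passed the filter in germ-free animals (log2 change 1.25, adjusted p = 0.0638, edgeR). Without the filter, Rtl1 was called lower in testis in conventional (-3.5, adjusted p = 0.0426, edgeR) and germ-free animals (-4.49, adjusted p = 0.0423), on the few counts given above. Members called without the filter were 24 in conventional and 23 in germ-free animals, against 22 and 21 in the main fit. Rtl1 was thus not the only gene of these 6 to gain a call, and the others are not named here.

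The Dlk1-Meg3 domain on chromosome 12 carries Dlk1 and Rtl1 on the paternal copy and, on the maternal copy, the noncoding RNAs Meg3, Rian (host of small nucleolar RNAs) and Mirg (host of a microRNA cluster), which lie one after another on the plus strand and are often described as parts of 1 long transcription unit. In the gonads they did not move together. Meg3 was at 49.3, 72.8, 68.3 and 71.7 CPM in conventional ovaries and at 4.35, 3.29, 5.71 and 3.38 CPM in testes, a log2 change of -3.95 (SE 0.190). Rian followed it, at 60.1, 92.6, 76.0 and 81.7 CPM in ovaries and 5.91, 6.48, 5.41 and 5.53 CPM in testes (-3.71, SE 0.133). Mirg was at 2.50, 5.75, 3.68 and 4.97 CPM in ovaries and 18.7, 19.8, 16.6 and 15.5 CPM in testes, with all testes above all ovaries, a log2 change of 2.08 (SE 0.205, adjusted p = 1.28e-06, edgeR). In germ-free animals the changes were -4.61 for Meg3, -3.91 for Rian and 1.67 for Mirg. Dlk1, a membrane protein that inhibits fat cell formation, was low in both gonads, with 0.469 to 0.692 CPM in conventional ovaries and 0.154 to 0.607 CPM in testes (log2 change -0.52, adjusted p = 0.206). In germ-free animals Dlk1 changed by -1.78 (adjusted p = 0.087, edgeR), and without germ-free ovary replicate 1 by -2.06 (adjusted p = 0.0323). Over all fits that left out 1 library the change ran from -2.06 to -0.72, with adjusted p up to 0.195 (edgeR). Germ-free ovary replicate 5 alone held 81 of the 127 Dlk1 counts of its group. With raw library totals it was called lower in testis in conventional (-1.31, adjusted p = 0.00488, edgeR) and germ-free animals (-2.56, adjusted p = 0.0216).

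The 250 bases upstream of the RefSeq start of each of the 3 noncoding RNAs are shown because these neighbours differ in direction between the gonads. They are on the plus strand of chromosome 12 in GRCm38, at chr12:109540746-109540995 for the upstream start of Meg3, chr12:109603695-109603944 for Rian and chr12:109734731-109734980 for Mirg. CpG dinucleotides, where mammalian DNA is methylated, are in capitals. The Meg3 and Mirg windows hold 10 CpG each and the Rian window holds 0. The RefSeq start of Mirg lies inside the Mirg gene of the counting table's identifier, downstream of that gene's annotated start at 109729764. The Mirg window also covers the Mir485 hairpin and the mature miR-668 sequences, so some of its CpG lie in hairpin sequence.
Meg3: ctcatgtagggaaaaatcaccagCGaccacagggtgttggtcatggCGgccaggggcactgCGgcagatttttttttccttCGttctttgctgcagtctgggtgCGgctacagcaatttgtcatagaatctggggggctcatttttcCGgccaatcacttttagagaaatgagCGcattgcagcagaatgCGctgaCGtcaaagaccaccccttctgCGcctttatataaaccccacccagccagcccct
Rian: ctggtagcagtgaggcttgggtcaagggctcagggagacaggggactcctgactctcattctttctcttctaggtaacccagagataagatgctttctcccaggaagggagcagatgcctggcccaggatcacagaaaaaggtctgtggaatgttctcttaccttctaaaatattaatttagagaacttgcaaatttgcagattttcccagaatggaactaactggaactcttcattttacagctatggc
Mirg: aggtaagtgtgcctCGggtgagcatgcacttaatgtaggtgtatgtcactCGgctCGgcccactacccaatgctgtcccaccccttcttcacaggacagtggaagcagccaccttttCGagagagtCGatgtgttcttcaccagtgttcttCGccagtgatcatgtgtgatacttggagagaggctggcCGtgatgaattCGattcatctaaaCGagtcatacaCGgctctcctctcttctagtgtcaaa

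The other plus-strand rows of the domain were then read in order of position, a step chosen after the values of Mirg were seen. Of the rows that start before Mir496a, 198.1 kb downstream of the Meg3 start, and that held at least 10 counts in the conventional animals, 36 of 36 had a lower mean CPM in testis. From Mir496a on, 7 of 7 such rows had a higher mean CPM in testis. In germ-free animals the counts were 45 of 45 lower and 7 of 7 higher. The 10 counts were summed over both gonads, so a row could pass through 1 gonad alone, which fixes its direction. Mir432, with 23 counts in conventional ovaries and 0 in testes, is such a row. Of the rows left out before Mir496a, Mir379 was higher in conventional testes (0.0253 against 0.0151 CPM). Mir3070b was higher in germ-free testes (0.049 against 0.046 CPM), each on few counts. These numbers describe where the order turns and carry no test, and rows that lie inside Rian or Mirg may share reads with them.

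**Figure D3:**
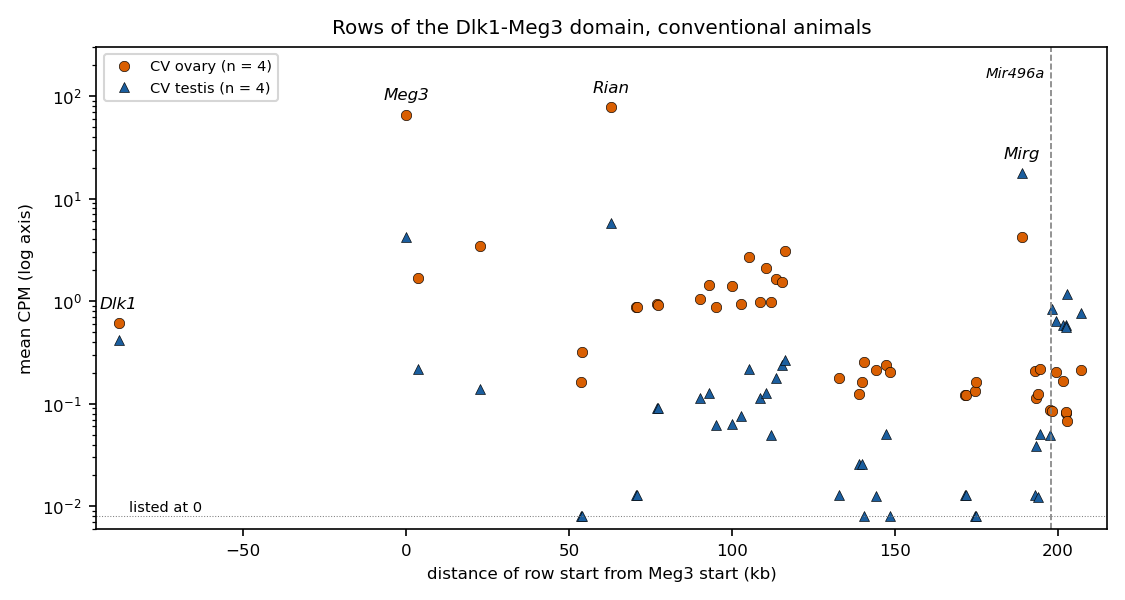
Mean CPM, on a log axis, of plus-strand rows of the Dlk1-Meg3 domain with at least 10 counts in conventional ovaries and testes together, against the distance of the row start from the Meg3 start. Ovary circles lie above testis triangles up to the dashed line at Mir496a, 198.1 kb from Meg3, and below them for the 7 rows after it; Mirg, whose row starts at 188.8 kb and spans the line, is higher in testis.

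Within Mirg the turn fell between neighbouring hairpins. The 5 hairpin rows before it (Mir382, Mir134, Mir485, Mir453 and Mir154) summed to between 8 and 17 counts per conventional ovary library and between 1 and 4 counts per conventional testis library. The 7 hairpin rows after it (Mir496a, Mir377, Mir541, Mir412, Mir369, Mir410 and Mir3072) summed to between 7 and 32 counts per ovary library and between 88 and 112 counts per testis library, and the testis libraries are the deeper ones, with totals as given above. Mir154, the last row before the turn, held 6 counts in 4 ovaries and 4 counts in 4 testes, too few to give it a direction. Mir496a, the next row, held 6 and 67 counts, and Mir410 held 5 and 93 counts. The place of the turn was read from these counts, so the rows are described with no test. Reads of this library type over a hairpin come from the precursor or its host RNA and do not measure the mature microRNA.

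Examples of the mature microRNAs on either side of the turn are shown, from RefSeq, with other arms and hairpins of both stretches left out. They name some of the products that each stretch of the host RNA encodes. They lie on the plus strand at chr12:109735669-109743784 of GRCm38. Bases 2 to 8, the seed that pairs with target messages, are in capitals. miR-453 lies before the turn and miR-496a-5p after it, and they share the seed GGUUGCC, the only seed shared among the 26 mature sequences listed for hairpins inside Mirg. The other 24 each have a seed of their own within this set.
mmu-miR-453: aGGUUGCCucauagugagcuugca
mmu-miR-154-5p: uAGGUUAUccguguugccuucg
mmu-miR-154-3p: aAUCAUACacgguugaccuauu
mmu-miR-496a-5p: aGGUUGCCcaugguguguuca
mmu-miR-496a-3p: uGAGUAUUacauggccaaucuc
mmu-miR-377-3p: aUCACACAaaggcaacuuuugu
mmu-miR-369-3p: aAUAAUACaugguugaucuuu
mmu-miR-410-3p: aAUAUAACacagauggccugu

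Across members, promoters were described from RefSeq windows of 250 bases before to 50 bases after a start, which were available for 28 of the 34 genes. Windows rich in CpG (observed over expected CpG above 0.6 and GC above 50%) were present at 17 of these 28 genes (60.7%) and at 35.8% of all genes with a window. The letters TGCCGC, the core motif bound by ZFP57 at methylated imprinting control regions, were found on either strand in a window of 9 of the 28 genes (32.1%) and of 13.1% of all genes. Members had more windows per gene (45 for 28 genes, against 32851 for 27025), and counted by window the shares lay closer, at 44.4% against 33.3% for CpG-rich windows and 22.2% against 11.6% for the motif. The motif holds a CpG itself, and a match is a match of letters only. The 9 were Copg2, Grb10, Igf2, Meg3, Mest, Nnat, Plagl1, Snrpn and Zim1. Copg2 was higher in testis, and Meg3, Nnat, Plagl1, Grb10 and Mest were lower. For Igf2 and Snrpn the sign turned with raw library totals, and Zim1 was not tested between the gonads in the main fit.

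The second question was whether imprinted genes differ between germ-free and conventional testes. Of 27 members tested, 3 were called, Cdkn1c and Grb10 higher and Snrpn lower in germ-free testes. The background in this comparison was 8.08% of 20269 genes at an adjusted p under 0.05 (edgeR quasi-likelihood), against 11.1% of members, so the members were called about as often as other genes. At an unadjusted p under 0.05 there were 4 of 27 members, against 19.4% of all genes, and the levels of the groups did not overlap for 4 of 27 members (Snrpn, Cdkn1c, Ascl2 and Grb10), against 16.7% of all genes. The median log2 change of the members was -0.02.

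Cdkn1c was at 12.9, 13.6, 12.2 and 12.6 CPM in conventional testes and at 16.9, 15.1 and 18.6 CPM in germ-free testes. All germ-free libraries stood above all conventional ones. The mean rose from 12.8 ± 0.609 (SD, n = 4) to 16.9 ± 1.74 CPM (SD, n = 3), a log2 change of 0.41 (SE 0.0826, adjusted p = 0.000608, edgeR). Grb10 was at 49.4, 47.7, 49.3 and 50.7 CPM in conventional and 56.3, 54.2 and 59.1 CPM in germ-free testes, again without overlap, and rose by 0.21 (SE 0.0477, adjusted p = 0.00242). Both calls held in each of 7 fits that left out 1 library (adjusted p at most 0.0219 for Cdkn1c and 0.0483 for Grb10, edgeR). Both were lost when ovary and testis libraries were fitted together (0.625 and 0.178), and the cause of that loss was not tested.

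Snrpn was at 17.7, 17.3, 16.3 and 16.2 CPM in conventional and 13, 14.6 and 14.6 CPM in germ-free testes. Its log2 change of -0.25 (SE 0.0784) passed narrowly (adjusted p = 0.0442, edgeR), and the call was lost in 6 of 7 fits that left out 1 library (every library but conventional testis replicate 4, adjusted p up to 0.209) and with DESeq2 (0.119). Snurf, which shares its transcript with Snrpn, changed by -0.38 (adjusted p = 0.115). Asb4 was at 47.9, 50.3, 59.4 and 63.5 CPM in conventional and 60.5, 60.2 and 70.5 CPM in germ-free testes, and these overlapped. Its log2 change of 0.22 was not called (adjusted p = 0.319) and was called without conventional testis replicate 4 (0.28, adjusted p = 0.0412).

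Some cell type markers also differed between the testis groups, where 8.08% of all genes were called. Spermatid genes summed to between 20900 and 22200 CPM in conventional and between 19700 and 20800 CPM in germ-free testes, with 7 of 8 genes at negative log2 changes and 3 called lower. Spermatogonia genes summed to between 119 and 125 CPM and to between 126 and 137 CPM, with 7 of 8 positive and 1 called higher. Spermatocyte genes summed to between 5400 and 5530 CPM and to between 5470 and 5520 CPM, with 3 of 7 positive and 2 called higher, Piwil1 (0.26, adjusted p = 3.07e-07, edgeR) and Spo11 (0.14, adjusted p = 0.0184). Stromal genes summed to between 153 and 229 CPM and to between 150 and 163 CPM, with 8 of 8 negative and 1 (Dcn) called lower. Sertoli genes summed to between 1200 and 1280 CPM in conventional and between 1200 and 1250 CPM in germ-free testes, with 3 of 8 positive and 0 called. Theca and Leydig genes summed to between 906 and 1160 CPM and to between 1090 and 1110 CPM, with 4 of 8 positive and 0 called. No gene of these lists was at 0 in either testis group. The part of these markers in the changes of Cdkn1c, Grb10 and Snrpn was not tested.

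**Figure D4:**
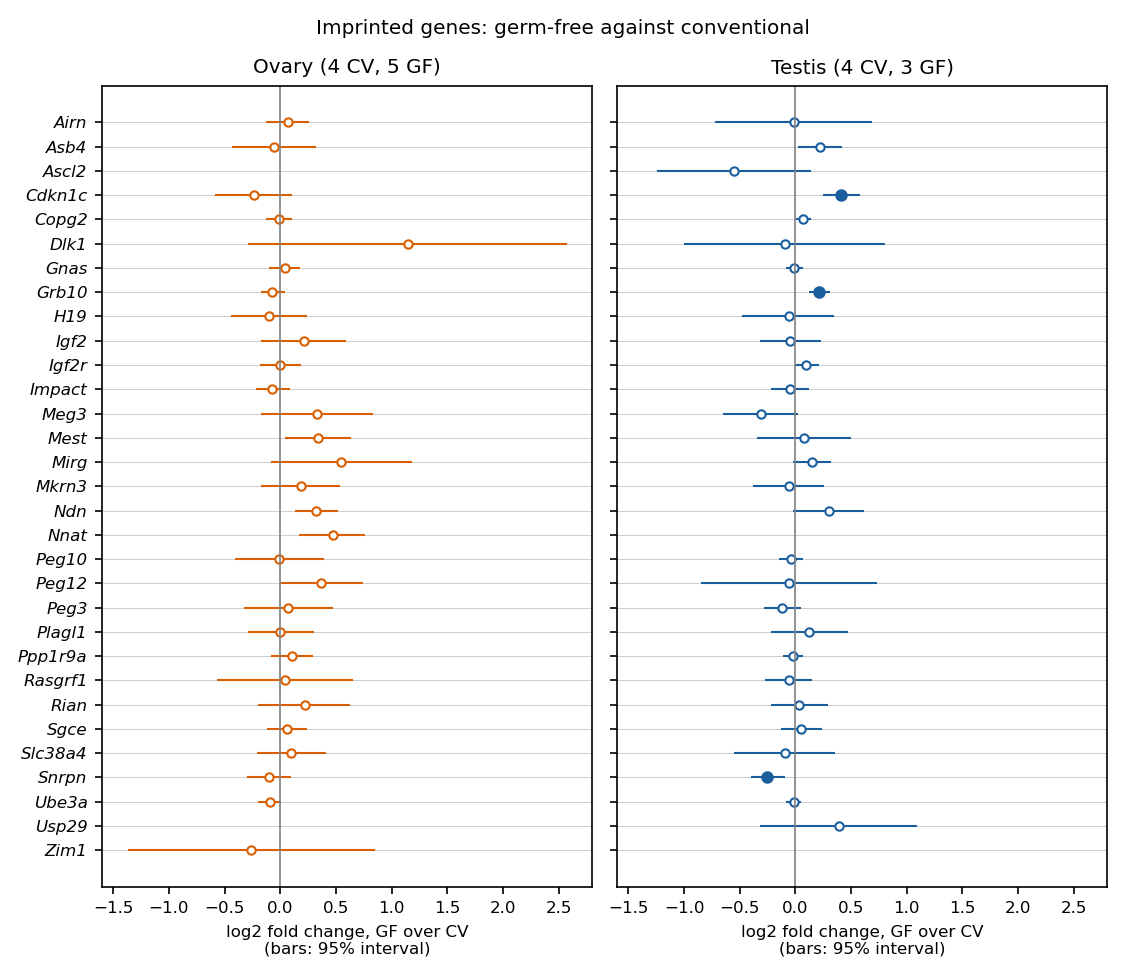
Log2 fold change of germ-free over conventional with 95% intervals, in ovary (orange) and testis (blue), on a shared axis, with filled points for calls at an adjusted p under 0.05. The filled points are Cdkn1c (0.41), Grb10 (0.21) and Snrpn (-0.25) in testis, and no point is filled in ovary; genes without a point in a panel did not pass its filter on low counts.

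In the ovary, no member was called between germ-free and conventional animals. Of 18095 genes tested, 0.177% passed (32 genes, edgeR quasi-likelihood), and 0 of 27 members did. With the replicate number as a block, in a fit that left out germ-free ovary replicate 5, 91 genes and again 0 members passed. DESeq2 called 95 genes and 0 members. At an unadjusted p under 0.05 there were 3 of 27 members (Ndn, Nnat and Mest), against 6.48% of all genes, and the groups did not overlap for 1 of 27 (Ndn), against 2.81% of all genes. Median log2 change was 0.04 for the members and 0.01 for all genes.

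Ndn was at 15.5, 21.5, 17.5 and 20.4 CPM in conventional ovaries and at 22.0, 25.0, 23.4, 23.5 and 23.8 CPM in germ-free ovaries. Each germ-free library lay above each conventional one, at a log2 change of 0.32 (95% interval 0.13 to 0.52), with an adjusted p of 0.536 (edgeR). Nnat was at 29.3, 24.8, 26.0 and 26.8 CPM in conventional and 28.1, 30.1, 35.6, 43.4 and 48.0 CPM in germ-free ovaries, overlapping at 1 library, with a log2 change of 0.47 and an adjusted p of 0.642. Mest changed by 0.34 (adjusted p = 0.769). Intervals were narrow for Igf2r (-0.18 to 0.19), Grb10 (-0.17 to 0.04), Gnas (-0.10 to 0.18) and Copg2 (-0.13 to 0.11). They were wider for other well counted members, such as Peg10 (-0.41 to 0.39) and Meg3 (-0.17 to 0.83). For Dlk1 the interval ran from -0.29 to 2.58.

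Whether the germ-free difference itself differed between tissues was tested as an interaction. It was called for 0.132% of 21977 genes (29 genes, edgeR quasi-likelihood) and for 0 of 28 members. At an unadjusted p under 0.05 there were 3 of 28 members, against 6.93% of all genes. These were Grb10 (0.26, SE 0.0711, adjusted p = 0.279), Cdkn1c (0.63, SE 0.222, adjusted p = 0.541) and Nnat (-1.42, SE 0.581, adjusted p = 0.638). Nnat did not pass the filter on low counts between the testis groups. It had 52 counts in conventional testes, 26 of them in replicate 3, and 20 in germ-free testes. A difference between ovary and testis in the response of Cdkn1c or Grb10 was thus not shown.

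Ovary libraries varied more than testis libraries, with a biological coefficient of variation of 18.5% against 4.17% over all genes. Among germ-free ovaries, replicate 5 stood apart for several members. It was the highest of the 9 ovary libraries for 10 of 27 members (37%), against 14.1% of all genes tested. The 10 were Igf2r, Meg3, Dlk1, Peg3, Zim1, Peg10, Sgce, Nnat, Gnas and Slc38a4, and these were read after their values were seen, with no test.

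Dlk1 was at 0.248, 1.06, 0.737, 0.582 and 4.14 CPM in germ-free ovaries 1 to 5, and Peg3 was at 45.2, 38.6, 50.7, 44.5 and 83.9 CPM. In both, the highest value was that of replicate 5, above all conventional ovaries as well. Without it, the log2 change of Dlk1 in germ-free ovaries fell from 1.15 to 0.09, and that of Peg3 went from 0.07 to -0.16. In the same library, corpus luteum genes summed to 6080 CPM and surface and oviduct epithelium genes to 1780 CPM. Each of these sums was the lowest of the 9 ovaries. Stromal genes there summed to 4560 CPM, in a range of 2410 to 5070 CPM, and only conventional ovary replicate 2 was higher. No gene of these lists was at 0 in an ovary group, and their part in the levels of replicate 5 was not tested.

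**Figure D5:**
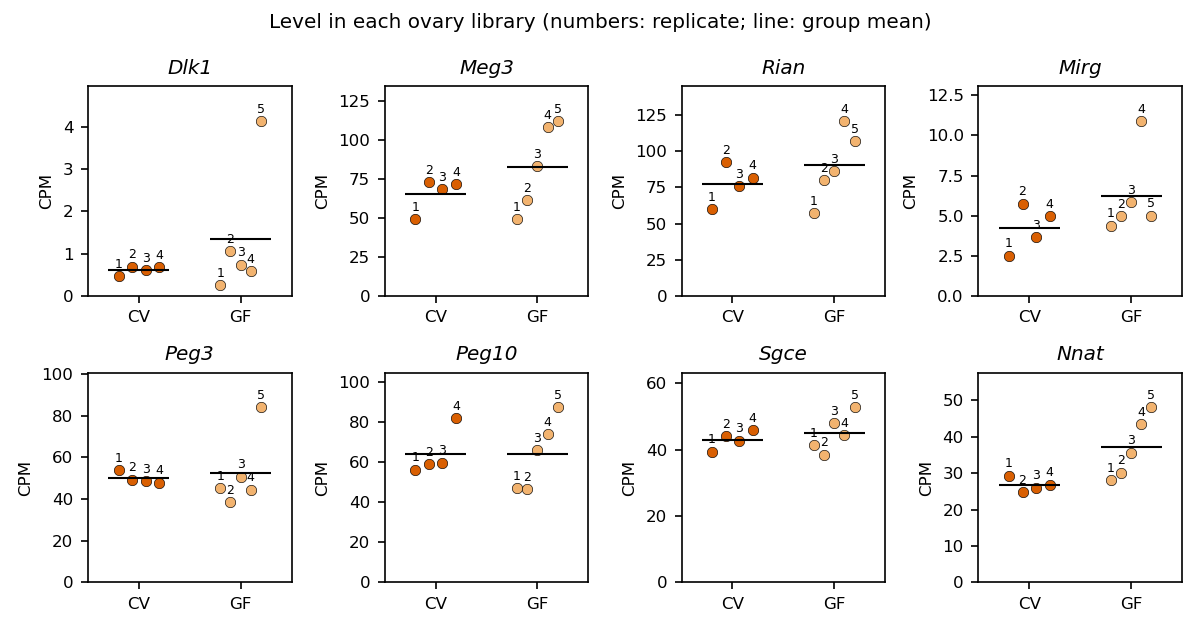
CPM of 8 imprinted genes in each of the 4 conventional and 5 germ-free ovaries, with the replicate number above each point and the group mean as a line. Germ-free replicate 5 is highest for Dlk1 (4.14), Peg3 (83.9), Meg3, Peg10, Sgce and Nnat, and germ-free replicate 4 is highest for Rian and for Mirg (10.9).

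Neighbouring members were compared across the 9 ovaries on the log2(CPM + 0.5) scale, in 8 pairs where both genes averaged 1 CPM or more over the ovaries. Meg3 and Rian varied together (Pearson r = 0.95, exact permutation p adjusted over the 8 pairs = 0.00511, Spearman rho = 0.95, adjusted permutation p = 0.00282), and without the 2 libraries farthest from the median of Meg3 r was 0.92. Rian and Mirg did so too, although they differ in opposite directions between tissues (r = 0.81, adjusted exact permutation p = 0.0218, rho = 0.88, adjusted permutation p = 0.0082, and 0.82 without 2 libraries). Peg10 and Sgce were the remaining pair to pass (r = 0.84, adjusted exact permutation p = 0.0185, rho = 0.92, adjusted permutation p = 0.00525, and 0.74 without 2 libraries). For Igf2 and H19 the relation did not pass (r = 0.12, adjusted exact permutation p = 0.753, rho = -0.03). The libraries of a pair share depth and cell makeup, and the permutation treats the 9 ovaries as exchangeable, without regard to group or replicate number. Across the 7 testes none of 6 pairs passed, with Snrpn and Ndn the strongest (r = -0.82, unadjusted exact permutation p = 0.0262, adjusted 0.157, rho = -0.86), and r was -0.47 without 2 libraries.

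Related genes gave context for the members. Of 42 further imprinted genes found, 28 were tested between testis groups and 2 were called, both lower in germ-free testes, against 8.08% of all genes called in either direction. These were Atp10a, a phospholipid flippase gene beside Ube3a (-0.29, adjusted p = 2.44e-07, edgeR), and Dcn, the proteoglycan decorin (-0.49, adjusted p = 6.49e-06), which is also on the stromal list. Between the gonads of conventional animals 20 of 35 tested were lower and 11 higher in testis, against 43.8% and 47.4% of all genes, and the 4 with the smallest p were Sfmbt2 (5.38), a Polycomb group protein gene, Zdbf2 (5.68), Cd81 (-1.87) and Osbpl5 (-2.85).

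Of 35 genes tied to the writing, keeping or erasing of imprints, 31 were tested between testis groups. Of these, 4 were called higher and 1 lower in germ-free testes, against 8.08% of all genes called. Trim28, the corepressor recruited by ZFP57, changed by 0.19 (adjusted p = 4.07e-06, edgeR), Rbbp4 by 0.14, Padi6 by 0.52 and Dnmt3l, a cofactor of de novo DNA methylation in germ cells, by -0.34 (adjusted p = 0.0213). None of 33 tested was called in ovary, where 2 had an unadjusted p under 0.05. Between the gonads of conventional animals, 20 of 35 were lower and 12 higher in testis (91.2% of all genes were called), led by Atrx (-3.51), Ehmt2 (1.92), Tet2 (-3.55) and Tet1 (-4.74).

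Of 19 genes around insulin-like growth factor signalling, in which Igf2, Igf2r and Grb10 take part, 3 were called higher and 1 lower in germ-free testes, where 8.08% of all genes were called. Pappa, a protease that frees the growth factor from its binding proteins, changed by 0.34 (adjusted p = 0.000162, edgeR), the binding protein gene Igfbp2 by 0.41, the RNA-binding protein gene Igf2bp3 by 0.13 and the kinase gene Akt1 by -0.21 (adjusted p = 0.0166). None of 18 was called in ovary, where 1 had an unadjusted p under 0.05. Between the gonads of conventional animals, 14 of 19 were lower and 3 higher in testis (43.8% and 47.4% of all genes), led by Igfbp7 (-2.62), Irs1 (-5.65), Akt1 (-1.72) and Igf1r (-2.73).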

How the data were processed

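Total RNA was sequenced from 9 ovaries and 7 testes. Per the labels' protocols, libraries were made from 250 ng of RNA with a stranded kit after ribosomal depletion, amplified for 12 cycles and read as pairs of 100 bases. The submitters' processing notes name STAR 2.4.0i and mm10. How reads were counted, on which annotation and with which strand setting, is not given in the sources used here. The authors deposited whole-number counts of reads per gene over exons, and 36308 of the 38087 genes were given a position and exon length from GENCODE release M21 (GRCm38) by gene identifier.

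Counts were tested with edgeR 4.0.16 in R 4.3.3 (TMM, filterByExpr, robust quasi-likelihood F test), over all genes that passed the filter, with Benjamini-Hochberg adjustment and a threshold of 0.05. SE is the log2 change divided by the root of F, and 95% intervals apply a normal distribution to it. They make no allowance for the few libraries, so they can be too narrow. For Asb4 between testis groups the interval was 0.02 to 0.42, while the unadjusted p of the F test was 0.0735. Fits used only the libraries of a comparison, and all 16 for the interaction. Same-numbered ovary libraries deviated together from their group means (r from 0.2 to 0.37 in 4 pairs, over genes) and count as paired by the rule that every such pair exceeds 0.1, although differently numbered ovaries ran from -0.43 to 0.38. Testis libraries did not pair (-0.04 to 0.01 in 3 pairs). All replicate pairs differed beyond counting noise (chi-square per degree of freedom from 2.37 to 34.3). Alternatives were DESeq2 1.42.0, other scalings, no filter, a replicate block, a joint fit and leaving out each library. The block kept only replicate numbers present in both groups compared, and for the interaction in both groups of each tissue. Correlations used SciPy 1.17.1 and exact permutation over libraries (two-sided). The scripts were tested on simulated data. Named genes are all members found, and of other lists at most the 4 with the smallest p. The members and lists were chosen with earlier results of these data known. Counts alone did not set the precision, since the spread between libraries enters each interval too. Between ovary groups Peg10, with 10532 counts over the ovaries, had an SE of 0.205, and Ndn, with 3500, had 0.0986.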

Additional observations from a re-analysis of the deposited data

Results flagged for a closer look

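In groups of 4 or 5 libraries, 93 combinations of gene and group were examined for a library at the edge whose gap to its nearest neighbour took up most of the group's range, and 9 (9.68%) stood out. A rate by chance of about 1 in 20 would hold only for independent combinations. These share libraries, so whether 9 is more than chance gives was not tested. In germ-free ovary replicate 5, Dlk1 was at 4.14 CPM (0.248 to 1.06 in the other 4) and Peg3 at 83.9 CPM (38.6 to 50.7). Mirg was at 10.9 CPM in germ-free ovary replicate 4 (4.37 to 5.84 in the others) and Rasgrf1 at 2.71 CPM in germ-free ovary replicate 2 (1.07 to 1.53). Among conventional ovaries, H19 was low in replicate 2 at 8.62 CPM (13.5 to 14.0 in the other 3), and Peg10 was high in replicate 4 at 82.2 CPM (56.4 to 59.9). Among conventional testes, Igf2r (42.0 CPM, against 37.6 to 37.9) and Peg10 (49.2 CPM, against 42.3 to 43.4) were high in replicate 4, and Nnat was high in replicate 3 at 1.31 CPM (0.360 to 0.518), where it rests on 26 counts.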

How the results depend on the processing

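Under the alternatives, 2200 values were compared for members that passed the filter of the main fit, with Rian and Mirg. Of these, 2150 kept their call or stayed uncalled, 24 lost a call and 16 gained one. Another 10 reversed, with a call in at least 1 of the 2 fits. Among the 2150, 126 that were uncalled in both fits changed sign. The reversals were all between gonads. With raw library totals, Igf2 (-0.49 in conventional, -0.76 in germ-free animals), Snrpn (-0.55 and -0.70), Mkrn3 (-0.42 and -0.67), Ube3a (-0.73, germ-free) and Cdkn1c (-0.16, germ-free) turned negative, and with DESeq2 or its size factors in edgeR Ube3a turned to 0.12 in conventional animals. Counts of genes called moved in 3 comparisons. In ovary, DESeq2 gave 95, the replicate block 91 and the joint fit 93, against 32 (25 to 33 without 1 library). In testis, the joint fit gave 122 genes and 0 members, against 1638 and 3, and leaving out 1 library gave 996 (without germ-free replicate 2) to 2084. For the interaction, DESeq2 gave 112 against 29, and leaving out 1 library gave 13 (without germ-free testis replicate 3) to 37. Causes were not tested. With the replicate block, testis gave 1692 genes and 4 members (Asb4 added at 0.28, adjusted p = 0.000282, edgeR). That fit also left out conventional testis replicate 4, and without that library alone Asb4 was called at 0.28 too (adjusted p = 0.0412, edgeR). Testis against ovary gave 19204 genes and 21 members in conventional animals with the block. In germ-free animals, where ovary replicates 4 and 5 were left out, the block gave 18762 genes and 22 members. For the interaction the block gave 28 genes, without germ-free ovary replicate 5 and conventional testis replicate 4. Same-numbered testes did not pair. Some calls changed beyond those given beside the results (adjusted p, edgeR unless named). In testis, Snrpn was lost with raw library totals (0.0531) and the joint fit (0.522), and Asb4 was gained without the filter (0.000621). Between gonads, Mkrn3 was lost in conventional animals without the filter (0.0636) and with the block (0.0799). In germ-free animals Peg10 was lost with DESeq2 (0.0631), its size factors (0.0964) and no filter (0.0542), Usp29 was gained with those size factors (0.0409) and the block (0.0236), and Ube3a with DESeq2 (0.00265) and its size factors (0.00913). Members with few counts, such as Dlk1, Zim1 and Rtl1, could show only large differences at these depths.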
